A study of Mus musculus with 12 samples.

Results

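The thrombospondins are a family of secreted glycoproteins encoded by 5 genes, Thbs1, Thbs2, Thbs3, Thbs4 and Comp, all of which were found by gene name among the 54134 genes of the count table and all of which were among the 15585 genes with enough reads to test. Their transcripts were measured by RNA-seq in inguinal white adipose tissue (iWAT), a subcutaneous fat depot, of 12 male C57BL/6J mice on a chow diet. Each of the 6 AAV-GFP mice and 6 AAV-Notum mice was injected through the tail vein at 8 weeks of age with adeno-associated virus serotype 8 carrying either green fluorescent protein or mouse Notum behind a liver-specific thyroxine-binding globulin promoter. The fat was collected 4 weeks later, at 12 weeks of age, after a fast of 4 h. The vector is built to be expressed in the liver, both groups carry a vector, and no uninjected mice were included. NOTUM is a secreted carboxylesterase that inactivates Wnt proteins, so the comparison asks what fat looks like when the liver releases more of it. The family was chosen from this same contrast, in which Thbs2 ranked 2 and Thbs1 327 by p among the genes lower in the AAV-Notum mice, and the difference between the groups is therefore given for all 5 genes as a description, with its standard error and no test.

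Thrombospondins are matricellular proteins: they sit in the extracellular matrix and change how cells attach, migrate and respond to growth factors without being part of its scaffold. THBS1 and THBS2 assemble as trimers and carry type 1 repeats, through which they bind CD36 and inhibit blood vessel growth, and THBS1 also activates latent TGF-beta. THBS3, THBS4 and COMP assemble as pentamers, lack the type 1 repeats and bind collagens and other matrix proteins. In fat THBS1 is made by adipocytes, vessel and stromal cells and macrophages and is stored in platelets. THBS4 and COMP are best known from tendon, cartilage and muscle.

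In the mouse genome GRCm38 (GENCODE M21), Thbs1 (ENSMUSG00000040152) lies on chromosome 2 from 118111876 to 118127133 on the plus strand, and Thbs2 (ENSMUSG00000023885) on chromosome 17 from 14665500 to 14694235 on the minus strand. Thbs3 (ENSMUSG00000028047) lies on chromosome 3 from 89215180 to 89226837 on the plus strand, Thbs4 (ENSMUSG00000021702) on chromosome 13 from 92751590 to 92794818 on the minus strand, and Comp (ENSMUSG00000031849) on chromosome 8 from 70373558 to 70382066 on the plus strand. No 50-base stretch of exon, the length of a read, was shared between any of the 5 genes, so reads are not split between paralogs. Thbs3 overlaps the antisense gene Mtx1, which encodes a mitochondrial import protein, over 318 exonic bases. Whether reads were counted by strand is not given in the sources used here, so reads of Thbs3 and Mtx1 cannot be told apart there. Mtx1 itself had 28.8 ± 4.17 CPM (counts scaled to the library size; SD, n = 6) with the GFP vector and 28.6 ± 2.03 CPM (SD, n = 6) with the Notum vector. Gm29233, a noncoding gene antisense to Thbs1, had 0 to 2 reads in any mouse.

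RefSeq windows from 250 bases before to 50 bases after the transcription start (GRCm38.p6) were held for 3 of the 5 genes, Thbs2, Thbs3 and Thbs4. Those of Thbs2 (chr17:14694213-14694512, minus strand) and Thbs3 (chr3:89214930-89215229, plus strand) are shown because the groups were far apart for the former and overlapped for the latter. Capitals mark a CCAAT box in either orientation, the TATA box TATAAA in either orientation, or the TCF/LEF core CTTTGA through which Wnt signals are read, with the strand of the gene running 5′ to 3′.
Thbs2: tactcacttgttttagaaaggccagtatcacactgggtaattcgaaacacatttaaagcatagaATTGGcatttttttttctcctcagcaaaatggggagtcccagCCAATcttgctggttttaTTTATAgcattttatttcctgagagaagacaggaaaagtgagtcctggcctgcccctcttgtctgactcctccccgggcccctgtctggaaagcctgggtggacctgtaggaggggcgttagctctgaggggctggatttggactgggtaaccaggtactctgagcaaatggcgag
Thbs3: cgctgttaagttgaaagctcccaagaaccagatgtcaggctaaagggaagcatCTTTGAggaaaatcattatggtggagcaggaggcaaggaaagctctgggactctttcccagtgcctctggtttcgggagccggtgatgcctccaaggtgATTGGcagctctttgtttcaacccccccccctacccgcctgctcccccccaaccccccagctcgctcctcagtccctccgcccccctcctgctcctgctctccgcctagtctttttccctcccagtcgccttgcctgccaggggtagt
The Thbs2 window held CCAAT boxes starting 186 and 144 bases before the start and a TATA box 126 bases before it. The Thbs3 window held a CCAAT box 98 bases and a TCF/LEF core 197 bases before the start. Among 32851 windows of mouse genes, 37.4% held a CCAAT box, 13.6% the TATA box and 16.0% the TCF/LEF core. The letters TGANTCA of an AP-1 site were in 7.81% of the windows and in none of the 3, and the Thbs4 window held none of these 4 motifs. The E-box CANNTG was in 72.3% of all windows, with 2 copies for Thbs2, 1 for Thbs3 and 2 for Thbs4. These matches describe the letters in the window and not binding.

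Total counts ran from 14711113 to 21618860 per mouse. RNA integrity numbers ran from 5.7 to 7.6 in the AAV-GFP mice and from 6.9 to 7.4 in the AAV-Notum mice. RNA was isolated 2 days after collection in 11 mice and 22 days after in mouse AAV-GFP S_2012. The tissue carried the adipocyte markers in all mice (8 genes, summed 34996 to 60449 CPM in the AAV-GFP and 31738 to 73639 CPM in the AAV-Notum mice). Lymphoid transcripts (15 genes) summed to 303 to 2794 CPM in the AAV-GFP mice, lowest in mice S_2011 and S_2014, and to 962 to 3727 CPM in the AAV-Notum mice. Their medians were 1355 and 2716 CPM, and all 15 genes had a log2 fold change above 0 (median 0.99), none of them at an unadjusted p under 0.05 (edgeR). Skeletal muscle transcripts (8 genes) summed to 25.3 to 812 CPM in the AAV-GFP mice and to 30.4 to 3695 CPM in the AAV-Notum mice, highest in mouse AAV-Notum S_2042. Hepatocyte transcripts (8 genes) had median sums of 240 CPM in the AAV-GFP mice and 40.7 CPM in the AAV-Notum mice. All 8 had a log2 fold change below 0 (median -2.80), 2 of them at an unadjusted p under 0.05 and 0 at an adjusted p under 0.05 (edgeR). The Notum transcript in the fat samples was at 29.3 and 26.6 CPM in mice AAV-Notum S_2032 and S_2041. It was at or below 0.995 CPM in the other 10 mice. Mice S_2032 and S_2041 had hepatocyte sums of 145 and 810 CPM, the largest of the AAV-Notum group. Mouse AAV-GFP S_2013 had a hepatocyte sum of 5676 CPM with 0.995 CPM of Notum. Whether the Notum transcript came from fat or from liver RNA in the samples was not tested. The vector acts in the liver and most AAV-Notum mice had little Notum transcript in the fat, so that transcript cannot check every label.

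Thbs1 was lower in the AAV-Notum mice, with 63.1 ± 52.8 CPM (SD, n = 6) in the AAV-GFP group and 22.3 ± 5.95 CPM (SD, n = 6) in the AAV-Notum group. In the AAV-GFP mice S_2011, S_2012, S_2013, S_2014, S_2021 and S_2022 the Thbs1 level was 66.6, 166, 28.7, 55.2, 29.5 and 32.2 CPM. In the AAV-Notum mice S_2031, S_2032, S_2033, S_2034, S_2041 and S_2042 it was 27.3, 22.1, 23.3, 29.1, 19.3 and 12.6 CPM. Of the AAV-Notum mice, 5 of 6 lay below the lowest AAV-GFP mouse, and mouse S_2034 lay just above it. The AAV-GFP mean was pulled up by mouse S_2012, and the ratio of AAV-GFP to AAV-Notum was 2.83 for the means and 1.92 for the medians. The log2 fold change was -1.50 (standard error 0.43), and without mouse S_2012, the one with the later RNA isolation, it was -0.93. With the lymphoid score as a covariate it was -1.06 (standard error 0.50).

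The spread of Thbs1 among AAV-GFP mice was far above counting error. With 490 to 2790 reads per AAV-GFP mouse, counting alone would give a coefficient of variation (SD over mean) of 3.02%, and the one measured was 83.8%, or 40.9% without mouse S_2012. In the AAV-Notum mice, with 194 to 537 reads, it was 26.7% against 5.07% from counting. Platelet and megakaryocyte markers, of which 3 of 9 were abundant enough to test and none was at 0 in all mice, summed to 24.8 to 53.9 CPM in the AAV-GFP and 25.4 to 36.8 CPM in the AAV-Notum mice. Mice S_2012 and S_2011, with the most Thbs1, also had the largest platelet sums, at 53.9 and 45.6 CPM. The other AAV-GFP mice did not follow this order. Mouse S_2014, next in Thbs1 at 55.2 CPM, had the lowest platelet sum of all mice, 24.8 CPM. Mouse S_2022, with 32.2 CPM of Thbs1, had a platelet sum of 40.1 CPM. In mice S_2011 and S_2012 most of the platelet sum was Pf4, a platelet chemokine, at 39.1 and 37.0 CPM. Pf4 was at most 22.9 CPM in the other AAV-GFP mice. Ppbp was highest in mouse S_2012 (4.05 CPM, others 0.831 to 1.61 CPM), and the integrin chain Itga2b in mouse S_2022 (18.5 CPM), with 10.3 CPM in S_2012 and 4.54 CPM in S_2011. The part of these markers in the Thbs1 result was not tested. In bulk tissue, fewer cells of a type and less RNA per cell cannot be told apart.

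Thbs2 was the member with the clearest separation. It had 66.1 ± 13.7 CPM (SD, n = 6) in the AAV-GFP group and 29.5 ± 2.29 CPM (SD, n = 6) in the AAV-Notum group, a ratio of means of 2.24. The AAV-GFP mice S_2011, S_2012, S_2013, S_2014, S_2021 and S_2022 had 77.8, 83.0, 56.3, 64.1, 69.5 and 45.8 CPM of Thbs2. The AAV-Notum mice S_2031, S_2032, S_2033, S_2034, S_2041 and S_2042 had 25.3, 32.1, 29.8, 30.2, 29.1 and 30.6 CPM. The groups did not overlap, and the gap from the lowest AAV-GFP mouse to the highest AAV-Notum mouse ran from 45.8 to 32.1 CPM. The log2 fold change of Thbs2 was -1.16 (standard error 0.13). Over all genes tested, 0.693% had no overlap with the AAV-Notum mice below, and nothing is read from this for Thbs2, since the contrast chose the family.

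The 6 AAV-Notum mice were also close to each other for Thbs2. Their coefficient of variation was 7.76%, against 4.44% from counting 450 to 613 reads. In the AAV-GFP mice it was 20.8%, against 2.91% from counting 744 to 1506 reads. The log2 fold change of Thbs2 was -1.17 without mouse AAV-Notum S_2033 and -1.11 without mice AAV-GFP S_2011 and S_2014, the mice low in lymphoid transcripts. With the lymphoid score as a covariate it was -1.02. Stromal progenitor markers (8 genes) summed to 1764 to 2824 CPM in the AAV-GFP mice and to 1538 to 2001 CPM in the AAV-Notum mice, with medians of 2036 and 1705 CPM and 6 of the 8 at a log2 fold change below 0. Of the other marker sums, all but the lymphoid and the tendon and cartilage sums also had lower medians in the AAV-Notum mice. Those of 4 cell types are given here beside the stromal progenitors. Smooth muscle and pericyte markers (8 genes, 5 below 0) summed to 627 to 1213 CPM in the AAV-GFP mice, with a median of 1011 CPM, and to 541 to 931 CPM in the AAV-Notum mice, with a median of 711 CPM. Endothelial markers (8 genes, 7 below 0) summed to 681 to 1076 CPM (median 815) and 641 to 871 CPM (median 711), and macrophage markers (8 genes, 5 below 0) to 321 to 627 CPM (median 551) and 368 to 650 CPM (median 486). Schwann cell and nerve markers (7 genes, all 7 below 0) had medians of 225 and 140 CPM in ranges of 130 to 337 and 103 to 333 CPM. The ranges of all 5 marker sums overlapped between the groups, and no marker gene of these lists was at 0 in all mice or passed an adjusted p under 0.05 (edgeR), with 3, 2, 2, 1 and 1 genes, in the order given, lower at an unadjusted p under 0.05. Their part in the results for Thbs1, Thbs2 and the gene lists was not tested.

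**Figure D1:**
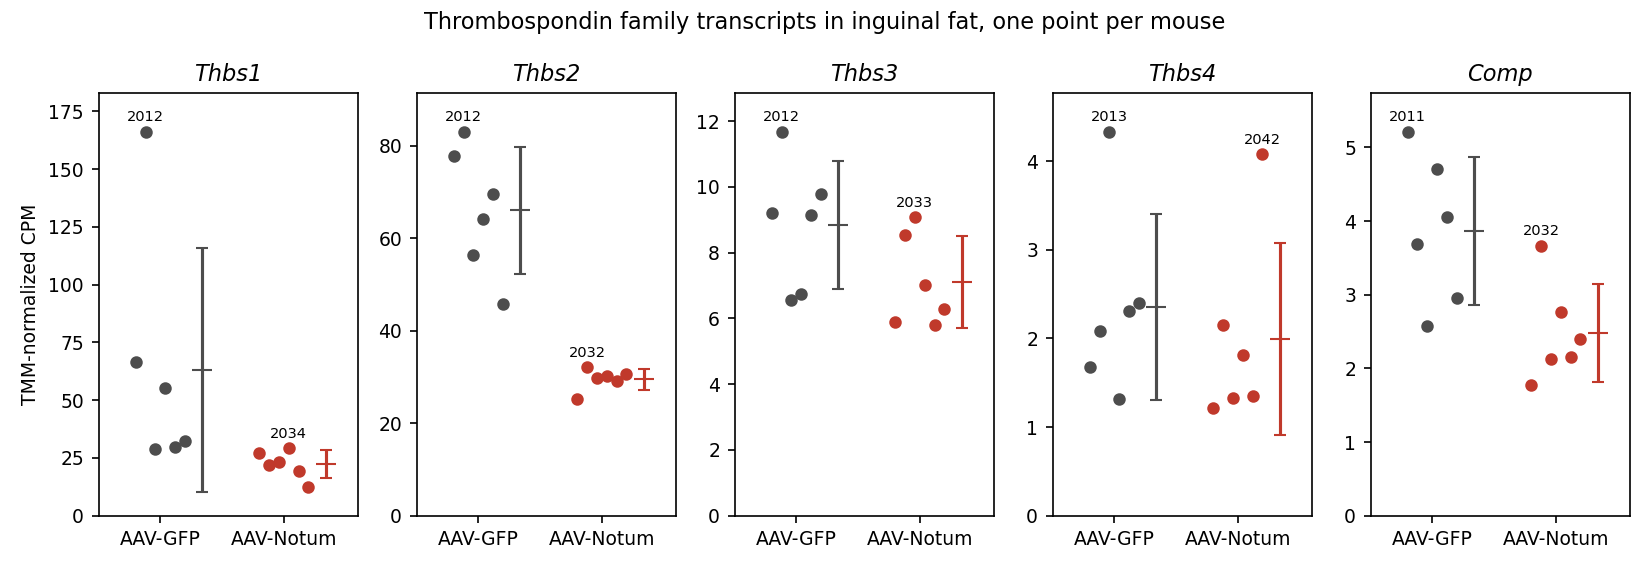
CPM (vertical axis, from 0, a separate scale for each gene) of the 5 thrombospondin genes in each of 6 AAV-GFP mice (grey) and 6 AAV-Notum mice (red), with the group mean and SD beside the points and the highest mouse of each group named. Only for Thbs2 do the groups not overlap, with AAV-Notum mice at 25.3 to 32.1 CPM and AAV-GFP mice at 45.8 to 83.0 CPM.

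Thbs3, a pentameric member, had 8.85 ± 1.94 CPM (SD, n = 6) in the AAV-GFP group and 7.10 ± 1.40 CPM (SD, n = 6) in the AAV-Notum group. The Thbs3 levels were 9.19, 11.7, 6.55, 6.73, 9.14 and 9.79 CPM in AAV-GFP mice S_2011 to S_2022 in the order used above, and 5.89, 8.54, 9.08, 7.02, 5.78 and 6.28 CPM in AAV-Notum mice S_2031 to S_2042. The ranges overlapped from 6.55 to 9.08 CPM. The log2 fold change was -0.32 (standard error 0.17), and -0.37 with the lymphoid score as a covariate. With lymphoid, hepatocyte and skeletal muscle scores as covariates, an alternative chosen after seeing the data, it was -0.53 (standard error 0.21). Between 94 and 198 reads per mouse stand behind these values.

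Thbs4, known from muscle and tendon, was the least abundant member and the only one whose direction turned when a mouse was left out. It had 2.35 ± 1.05 CPM (SD, n = 6) in the AAV-GFP group and 1.99 ± 1.08 CPM (SD, n = 6) in the AAV-Notum group. In the same order of mice, Thbs4 was at 1.68, 2.08, 4.33, 1.31, 2.31 and 2.40 CPM in the AAV-GFP group and at 1.22, 2.15, 1.33, 1.81, 1.35 and 4.08 CPM in the AAV-Notum group. One mouse of each group, AAV-GFP S_2013 and AAV-Notum S_2042, stood above the rest. The log2 fold change was -0.24 (standard error 0.35), and it was 0.0201 without mouse S_2013 and -0.58 without mouse S_2042. Between 20 and 74 reads per mouse stand behind these values. Mouse S_2042 had the largest skeletal muscle sum of all mice, 3695 CPM. Muscle transcripts summed to 188 CPM in mouse S_2013 and to 812 CPM in mouse S_2012, which had 2.08 CPM of Thbs4. Mouse S_2013 had the largest hepatocyte sum, 5676 CPM of 8 markers, where the other AAV-GFP mice had 45.6 to 1508 CPM and the AAV-Notum mice 20.2 to 810 CPM. The value for Thbs4 was -0.44 on the log2 scale with the lymphoid score as a covariate and -0.26 with the skeletal muscle score as a covariate, an alternative chosen after seeing the data. The part of these markers in the level of Thbs4 was not tested.

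Comp encodes cartilage oligomeric matrix protein, a collagen-binding pentamer. It had 3.87 ± 1.01 CPM (SD, n = 6) in the AAV-GFP group and 2.48 ± 0.667 CPM (SD, n = 6) in the AAV-Notum group. The AAV-GFP mice had 5.21, 3.69, 2.57, 4.71, 4.06 and 2.96 CPM of Comp, and the AAV-Notum mice 1.78, 3.67, 2.12, 2.77, 2.15 and 2.40 CPM. Each of the 6 AAV-Notum values lay under the mean of the AAV-GFP group, and 4 lay under its lowest mouse. Its log2 fold change came to -0.64, with a standard error of 0.22. With the lymphoid score as a covariate it was -0.38. Between 32 and 93 reads per mouse stand behind these values. Tendon and cartilage markers (3 of 10 tested) summed to 4.83 to 32.4 CPM in the AAV-GFP mice and 12.9 to 36.8 CPM in the AAV-Notum mice, with Tnmd, a tendon marker, at 0 to 0.234 CPM in every mouse. The medians of this sum were 15.8 and 27.4 CPM, and in every mouse most of it was Fmod and Cilp. Fmod was at 2.97 and 3.16 CPM in mice AAV-GFP S_2011 and S_2014, low in lymphoid transcripts. It was at 23.3 CPM in mouse AAV-GFP S_2022, which had the largest lymphoid sum of its group. The part of this marker sum in the Comp result was not tested.

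**Figure D2:**
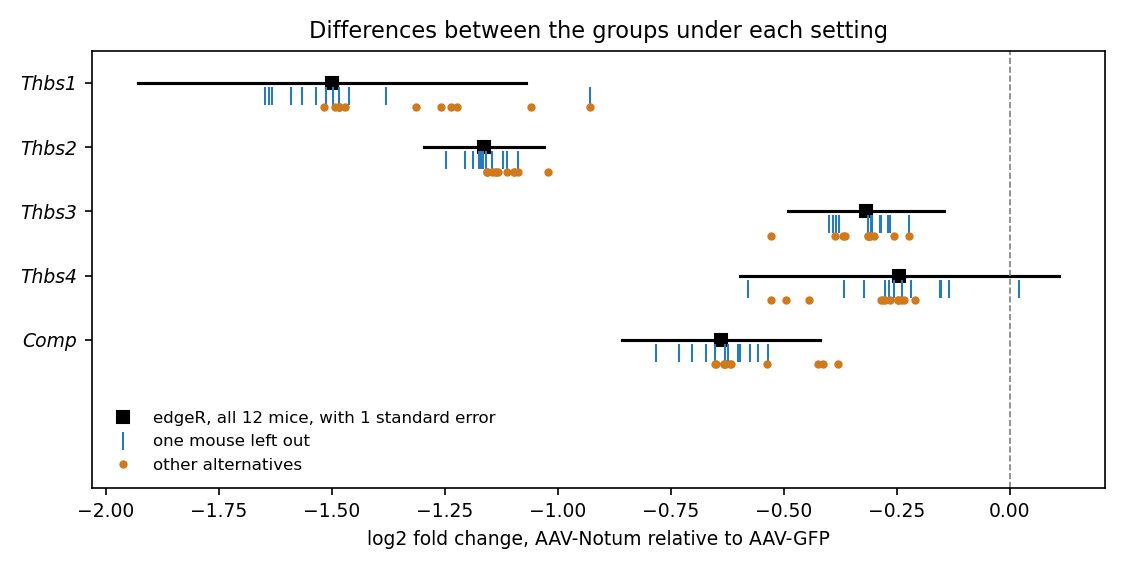
Log2 fold change (horizontal axis, AAV-Notum relative to AAV-GFP) of each member from edgeR on 12 mice with 1 standard error to each side (black), with 1 mouse left out (blue) and under the other alternatives (orange). Thbs2 stays between -1.25 and -1.02, Thbs1 reaches -0.93 without mouse S_2012, and Thbs4 reaches 0.0201 without mouse S_2013.

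Expressed per kilobase of exon, so that genes can be compared with each other, Thbs1 and Thbs2 carried most of the family's transcript. Per kilobase, Thbs1 had 10.4 ± 8.70 CPM (SD, n = 6) and Thbs2 9.44 ± 1.96 CPM (SD, n = 6) in the AAV-GFP mice. In the AAV-Notum mice these were 3.67 ± 0.979 and 4.21 ± 0.327 CPM per kilobase. The level of Thbs1 exceeded that of Thbs2 in 1 AAV-GFP mouse, S_2012, and in 2 AAV-Notum mice, S_2031 and S_2034, and the means of these neighbours do not differ beyond their spread in either group. Thbs3 followed with 1.83 ± 0.402 CPM per kilobase in AAV-GFP and 1.47 ± 0.291 in AAV-Notum mice, and was the third most abundant in 5 of 6 and 6 of 6 mice. Comp, at 1.30 ± 0.340 and 0.836 ± 0.225 CPM per kilobase, was above Thbs4, at 0.715 ± 0.320 and 0.605 ± 0.329, in 5 of 6 mice of each group. The order of the members was thus the same in both groups apart from the exchanges of Thbs1 with Thbs2, and of lower members in mice S_2013, S_2014 and S_2042.

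The family total per kilobase was 23.7 ± 10.5 CPM (SD, n = 6, range 15.6 to 43.5) in the AAV-GFP mice and 10.8 ± 1.04 CPM (SD, n = 6, range 9.66 to 12.0) in the AAV-Notum mice. Because Thbs1 and Thbs2 make up 75.9% to 90.1% of this total in the AAV-GFP mice and 65.8% to 78.7% in the AAV-Notum mice, its difference follows from theirs. Thbs3 made up 8.45 ± 2.73% (SD, n = 6) of the family in the AAV-GFP mice and 13.6 ± 1.99% (SD, n = 6) in the AAV-Notum mice. A share depends on the levels of all members, and the level of Thbs3 itself was not higher in the AAV-Notum mice.

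**Figure D3:**
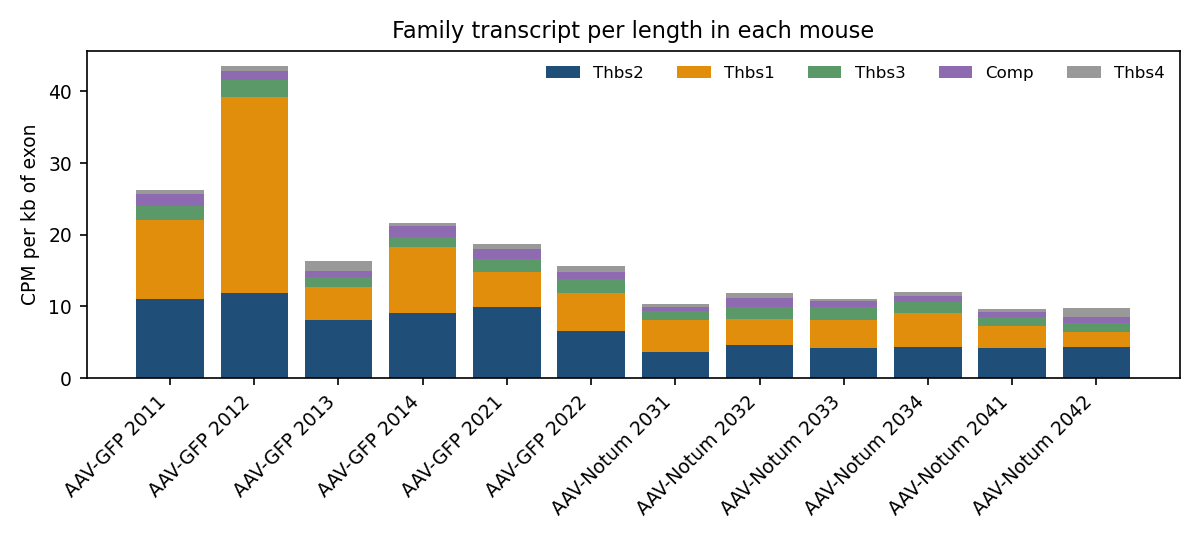
Stacked bars of CPM per kilobase of exon (vertical axis, from 0) of the 5 family members in each mouse. Thbs1 and Thbs2 fill most of every bar, the AAV-GFP totals run from 15.6 to 43.5 and the AAV-Notum totals from 9.66 to 12.0.

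The paralogs were then compared across the 12 mice after the mean of each group was subtracted, which leaves out the contrast that chose the family. Of 10 pairs, 6 had a correlation above 0. With p-values from 100000 permutations within the groups, 1 pair had an unadjusted p under 0.05 and none an adjusted p under 0.05 for Pearson's r. For Spearman's rho, 2 pairs had an unadjusted p under 0.05 and the smallest adjusted p was 0.198. A shared spread between paralogs was thus not detectable with this number of mice.

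The strongest pair was Thbs2 with Comp. Its group-centred r was 0.65 (permutation p = 0.0296, adjusted p = 0.296 over 10 pairs) and its rho 0.71 (permutation p = 0.0198, adjusted p = 0.198). Within the AAV-GFP mice r was 0.66 (exact p = 0.151, n = 6) and within the AAV-Notum mice 0.83 (exact p = 0.0542, n = 6). Without mice S_2012 and S_2011, whose Thbs2 levels were farthest from the median before centring, r was 0.71, and without S_2022 and S_2012, the farthest after centring, it was 0.84. The relation had the same sign in both groups, and with mouse S_2012 alone left out r was 0.77 (permutation, adjusted p = 0.0463). With the lymphoid score removed r was 0.51 (permutation, adjusted p = 0.324).

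Thbs1 and Thbs2, the type 1 repeat paralogs, had a group-centred r of 0.57 (permutation p = 0.150, adjusted p = 0.490) and a rho of 0.20 (permutation p = 0.574, adjusted p = 0.794). Within the AAV-GFP mice r was 0.73 (exact p = 0.0931, n = 6) and within the AAV-Notum mice -0.36 (exact p = 0.417, n = 6). Without mice S_2012 and S_2011, farthest from the median of Thbs1 before centring, the group-centred r was -0.0107, so the relation rests on those mice. It was 0.32 without S_2012 alone and 0.26 without S_2012 and S_2013, the farthest after centring. The ratio of Thbs1 to Thbs2 per kilobase ran from 0.490 to 2.31 in the AAV-GFP mice and from 0.474 to 1.24 in the AAV-Notum mice, with medians of 0.899 and 0.848. The relation of Thbs1 with Thbs3 had an r of 0.45 (permutation p = 0.196, adjusted p = 0.490), which was -0.0264 without S_2012 and S_2011 and 0.11 without S_2012 alone.

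For Thbs1 and Thbs4 the group-centred r was -0.51 (permutation p = 0.0944, adjusted p = 0.472) and rho -0.63 (permutation p = 0.0487, adjusted p = 0.244), with r at -0.46 within the AAV-GFP mice (exact p = 0.349, n = 6) and -0.76 within the AAV-Notum mice (exact p = 0.0819, n = 6). Without mice S_2012 and S_2011 r was -0.80, and without mouse S_2012 alone it was -0.77 (permutation, adjusted p = 0.0463). The mice high in Thbs4, S_2013 and S_2042, were each the lowest of their group for Thbs1. With the skeletal muscle score removed, r was -0.57 (permutation, adjusted p = 0.308). Thbs4 and Comp had a group-centred r of -0.20 (permutation p = 0.532, adjusted p = 0.665), with r at -0.88 within the AAV-GFP mice (exact p = 0.0167, adjusted p = 0.167, n = 6) and 0.44 within the AAV-Notum mice (exact p = 0.389, n = 6), and the difference between the groups was not tested. The other 5 pairs had group-centred r from -0.11 to 0.38.

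**Figure D4:**
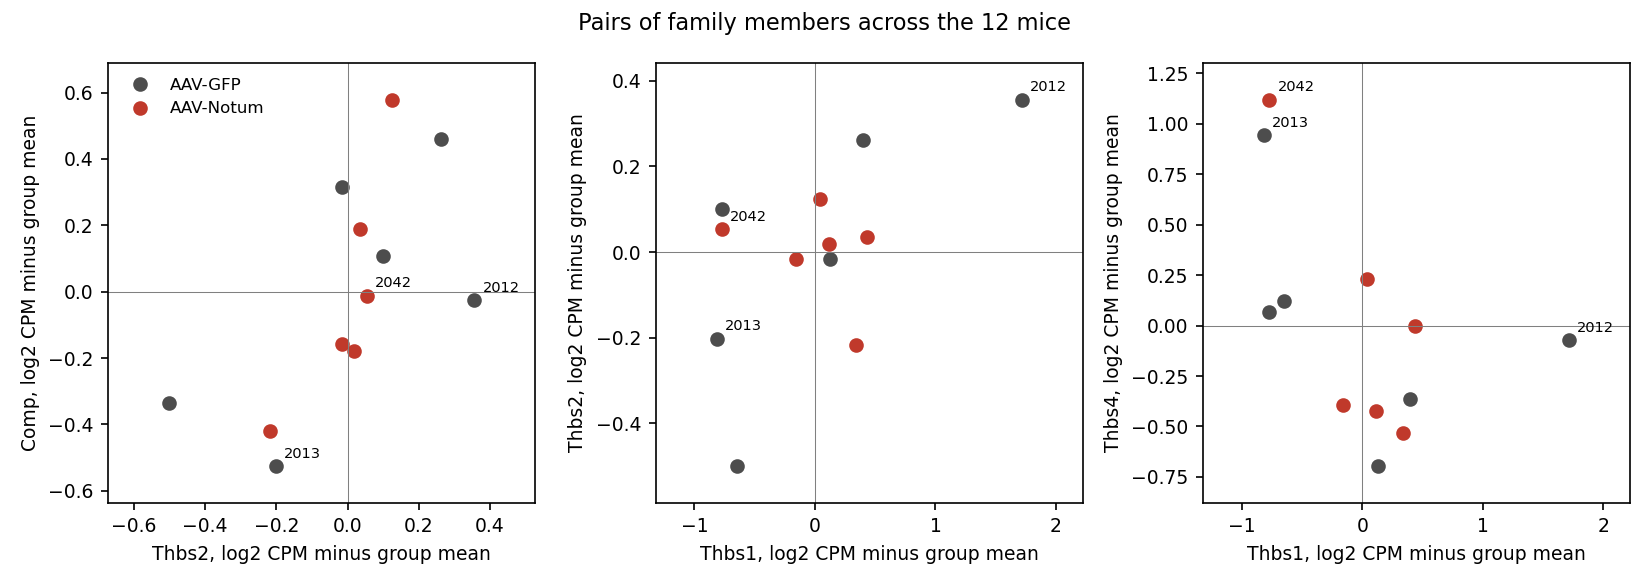
Log2 CPM minus the group mean for 3 pairs of members, 1 point per mouse (AAV-GFP grey, AAV-Notum red). Thbs2 and Comp have an r of 0.65 (adjusted p = 0.296, permutation over 12 mice), mouse S_2012 lies far out in the relation of Thbs1 with Thbs2 (r = 0.57, and 0.32 without it), and mice S_2013 and S_2042 are high in Thbs4 and low in Thbs1 (r = -0.51).

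The genes whose group-centred levels ran most closely with a member across the 12 mice were taken from 14428 genes of at least 1 CPM, as a description. For Thbs2 these were Ctdsp1, a phosphatase of RNA polymerase II (r = 0.94), the elastic fibre and basement membrane protein Fbln2 (r = 0.94), Dennd2a (r = 0.92), AL591952.3 (r = 0.91) and Fam26e (r = 0.91). Within the AAV-GFP mice these r ran from 0.94 to 0.98, and within the AAV-Notum mice they were 0.66, 0.91, 0.54, 0.55 and 0.71 in that order. For Thbs1 they were Git1, a scaffold of focal adhesions (r = 0.94), the guanine nucleotide synthesis enzyme Impdh1 (r = 0.93), Specc1l (r = 0.89), Cchcr1 (r = 0.85) and Trmt10a (r = 0.84). Within the AAV-GFP mice these r ran from 0.87 to 0.98, and within the AAV-Notum mice from 0.21 for Trmt10a to 0.90 for Git1. None of these 5 had a group difference near that of Thbs1, with log2 fold changes from -0.30 to -0.0358. Thbs2 ranked 394 among the genes for likeness to Thbs1, and Thbs1 ranked 2513 for likeness to Thbs2, while Comp ranked 1442 for Thbs2 and Thbs2 ranked 265 for Comp. These correlations share libraries and depth, and n is 12 mice.

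The thrombospondins act through receptors and matrix partners, and 4 lists of such genes were read from the same fit. Over all genes tested, the median log2 fold change was 0.00773, with 48.8% below 0, 9.54% lower at an unadjusted p under 0.05 and 4.64% higher, and in 0.693% the highest AAV-Notum value lay under the lowest AAV-GFP value. All 5 members had a log2 fold change below 0, with a median of -0.64. With all 12 mice and no covariate, edgeR called 0.0513% of all genes lower at an adjusted p under 0.05, and no gene of the 4 lists passed that threshold with edgeR or limma-voom. DESeq2, with 2.32% of all genes lower and 0.531% higher, called 3, 7, 6 and 5 genes of the lists lower and none higher, in the order below. Without mouse AAV-GFP S_2022, where edgeR called 0.930% of all genes lower, it called the partners Eln, Fgf2 and Hspg2, the type 1 repeat genes Adamtsl2, C6 and Sema5a, and the matricellular genes Fbln2, Fbln5 and Smoc2. It also called Tgfb3 without mouse AAV-GFP S_2013 (0.115% of all genes lower), and Eln and Fbln5 with the skeletal muscle score as a covariate (0.449% of all genes lower). The lists share Matn2, and hold 4 genes that also serve as cell type markers here, Dcn and Col1a1 for stromal progenitors, Notch3 for smooth muscle and pericytes, and Cilp for tendon and cartilage.

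Among 23 receptors and cell-surface partners, 17 had a log2 fold change below 0, 8 were lower at an unadjusted p under 0.05 and none was higher, with a median of -0.09. The 6 with the smallest p were the fibronectin receptor chain Itga5 (30.8 ± 3.24 and 21.9 ± 3.02 CPM in AAV-GFP and AAV-Notum mice, SD, n = 6 each, log2 fold change -0.49), Notch3 (-0.33), the endocytic receptor Lrp1 that clears thrombospondins (-0.63), Itgb5 (-0.72), the Wnt co-receptor Lrp5 (-0.47) and Itgb1 (-0.31). Their adjusted p ran from 0.105 to 0.236 (edgeR). Every receptor of the list had overlapping groups.

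Of 27 secreted and matrix partners, 23 were tested, 20 had a log2 fold change below 0, 11 were lower at an unadjusted p under 0.05 and none was higher, with a median of -0.40. Eln, which encodes elastin, had 100.5 ± 18.4 CPM (SD, n = 6) in the AAV-GFP group and 66.8 ± 5.53 CPM (SD, n = 6) in the AAV-Notum group, and was the 1 partner of 23 with no overlap, where 0.693% of all genes had none (log2 fold change -0.59, adjusted p = 0.0909, edgeR). Tgfb3, a TGF-beta ligand, had a log2 fold change of -0.64, the heparan sulfate proteoglycan Hspg2 -0.80, the collagen genes Col5a1 and Col1a2 -0.68 and -0.57, and the basement membrane gene Nid1 -0.78, with adjusted p from 0.130 to 0.176 (edgeR).

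Of 49 names of other proteins with type 1 repeats, 43 were in the table and 35 were tested. Of these, 26 had a log2 fold change below 0, 17 were lower and 1 higher at an unadjusted p under 0.05, with a median of -0.38. Without overlap, as in 0.693% of all genes, were Adamtsl2, which binds latent TGF-beta complexes (2.35 ± 1.12 and 0.657 ± 0.265 CPM, SD, n = 6 each, log2 fold change -1.83, 6 to 70 reads per mouse), the complement component C6 (-1.24) and Adamtsl3 (-0.60). Sema5a (-0.72), the protease Adamts1 (-0.83), Hmcn2 (-0.82) and the procollagen protease Adamts2 (-0.78) completed those with the smallest p. The adjusted p of these 7 ran from 0.102 to 0.221 (edgeR). C6 was highest in mice AAV-GFP S_2013 and S_2014, at 26.1 and 18.6 CPM, which had the largest hepatocyte sums, 5676 and 1508 CPM. In mouse AAV-GFP S_2011, with a hepatocyte sum of 45.6 CPM, C6 was at 14.4 CPM. The part of hepatocyte transcripts in the C6 result was not tested.

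Among 17 other matricellular proteins, 16 were tested, 13 had a log2 fold change below 0 and 8 were lower at an unadjusted p under 0.05 with none higher, and the median was -0.59. Fbln5, an elastic fibre assembly protein, had 41.4 ± 13.9 CPM (SD, n = 6) in the AAV-GFP group and 20.9 ± 3.26 CPM (SD, n = 6) in the AAV-Notum group with no overlap, the 1 gene of 16 where 0.693% of all genes had none (log2 fold change -0.98, adjusted p = 0.105, edgeR). Smoc2 (-1.11), the tenascin Tnxb (-0.72), Fbln2 (-0.68), the collagen chaperone and counter-adhesive protein Sparc (-0.71) and Efemp1 (-0.73) followed, with adjusted p from 0.151 to 0.221 (edgeR). With the lymphoid score as a covariate, those lower at an unadjusted p under 0.05 numbered 3 receptors, 7 partners, 10 type 1 repeat genes and 4 matricellular genes, while the share of all genes lower at that threshold was 4.85% in that fit. Without mice AAV-GFP S_2011 and S_2014 the counts were 5, 11, 12 and 5, with 4.95% of all genes lower.

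**Figure D5:**
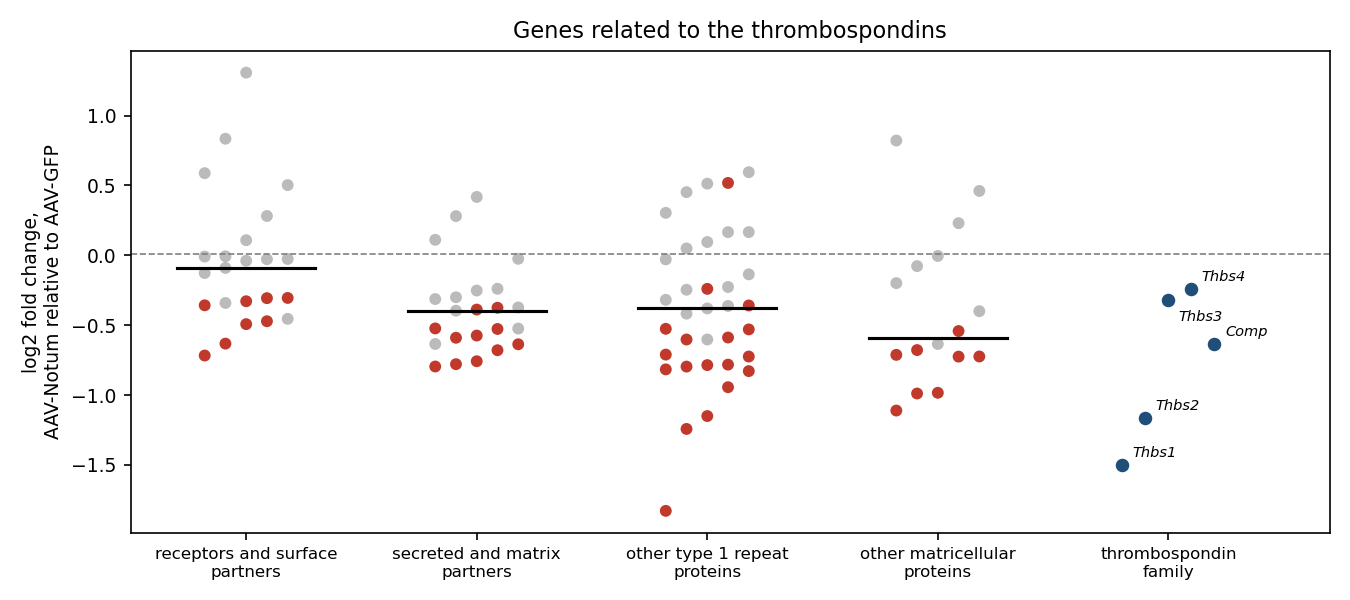
Log2 fold change (vertical axis, AAV-Notum relative to AAV-GFP) of each tested gene in 4 lists of related genes, red where the unadjusted p was under 0.05, with the list median as a black bar, and of the 5 thrombospondins (blue). List medians run from -0.59 to -0.09, against 0.00773 over all genes (dashed).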

How the data were processed

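iWAT RNA of 12 mice (6 per group by the sample labels) was sequenced by the authors as TruSeq libraries (50-base single-end reads), mapped to mm10 with STAR 2.3.1 per the submitters' processing notes, and deposited as a table of counts per gene without normalization. The counting program, its annotation and strand setting are not given in the sources used here. A second deposited table holds log2 values that the authors normalized (log2 of reads over a size factor per mouse, plus 1), from which 100% of values under 2000 reads came out within 0.01 of a whole read. It rests on another count of the reads, and its Thbs3 reads were fewer in every mouse. It served as an alternative.

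Tests on the counts ran in edgeR 4.0.16 under R 4.3.3: filterByExpr (minimum count 10, minimum total 15), TMM, glmQLFit and glmQLFTest, two-sided, Benjamini-Hochberg over 15585 genes, threshold 0.05, no covariate. CPM used TMM library sizes, log2 CPM a prior count of 2, and standard errors were derived from the F statistic. Differences of the members between the groups are a description, since that contrast chose the family, and counts of members called by a setting support nothing. Correlations used Pearson's r and Spearman's rho of log2 CPM less the group mean, with 100000 seeded permutations within groups, and all 720 pairings within a group. Lengths and positions came from GENCODE M21 (54069 of 54134 genes matched). Each sample is 1 mouse. Counting error alone covers neither animals nor library preparation.

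The members, gene lists and marker lists were chosen with earlier results of these data known. Named beside the members are Notum, genes overlapping a member, marker genes that a sentence needs, list genes with no overlap or an adjusted p under 0.05 and the 6 of each list with the smallest p, and the 5 genes most like Thbs1 and Thbs2. Alternatives were DESeq2 1.42.0, limma-voom (limma 3.58.1), RLE factors, other count filters, the normalized table, RNA integrity number or lymphoid score as a covariate, mice left out, and, chosen after seeing the data, skeletal muscle scores alone or with lymphoid and hepatocyte scores. The fits were tested on simulated data. No column of the tables was left out. Figures were drawn with matplotlib 3.10.9.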

Additional observations from a re-analysis of the deposited data

Results flagged for a closer look

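Each of 62 groups of 6 mice (5 members, 25 related genes and Notum, in both groups) was searched for a mouse far from the others, by the gap to its nearest neighbour over the whole range (Dixon's ratio, critical value 0.625), and 7 were found where chance gives about 1 in 20, or 3.1. Thbs1 in mouse AAV-GFP S_2012 was at 166 CPM where the other AAV-GFP mice were at 28.7 to 66.6 CPM (ratio 0.724). The same mouse stood out for Eln, at 137 CPM against 85.4 to 99.6 CPM (ratio 0.723), and for Adamtsl3, at 7.92 CPM against 3.69 to 4.92 CPM (ratio 0.711). It is also the mouse with the later RNA isolation. Thbs4 was at 4.33 CPM in mouse AAV-GFP S_2013 against 1.31 to 2.40 CPM (ratio 0.639), and at 4.08 CPM in mouse AAV-Notum S_2042 against 1.22 to 2.15 CPM (ratio 0.675). Col1a2 was at 1032 CPM in mouse AAV-Notum S_2042 against 779 to 861 CPM (ratio 0.676). Itga5 was at 27.9 CPM in mouse AAV-Notum S_2034 against 19.7 to 21.7 CPM (ratio 0.757).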

How the results depend on the processing

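Across 24 alternatives, 2 of them the same fit since S_2012 alone was isolated on another date, the log2 fold change ran from -1.65 to -0.93 for Thbs1, from -1.25 to -1.02 for Thbs2, from -0.53 to -0.22 for Thbs3, from -0.58 to 0.0201 for Thbs4 and from -0.78 to -0.38 for Comp. With DESeq2 Thbs1 was at -1.48, and 2 members were called lower, as were 2.32% of all genes. Without mice AAV-GFP S_2011 and S_2014 Thbs2 was at -1.11 and 0 members were called by edgeR, with 0.00625% of all genes lower. With 1 mouse left out, Thbs2 ran from -1.25 to -1.09, Thbs4 from -0.58 to 0.0201, and 0 to 1 members were called (0 without S_2033). In those fits, 0.00633% (without S_2033) to 0.930% (without S_2022) of all genes were called lower. The calls of members are on the values that chose the family and are a description. The cause of the shifts was not tested.

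Without mouse AAV-GFP S_2012, the only one isolated on another date, r was -0.77 for Thbs1 with Thbs4 and 0.77 for Thbs2 with Comp. With 1 mouse left out, these ran from -0.77 to -0.40 and from 0.58 to 0.77, Thbs2 with Thbs4 from -0.23 to 0.0687, Thbs3 with Thbs4 from -0.34 to 0.20 and Thbs4 with Comp from -0.38 to 0.10. Without S_2013 the latter 3 were 0.0687, 0.20 and 0.10, and Thbs3 with Thbs4 was 0.000868 without S_2033 and 0.0133 without S_2042. Other reversals were Thbs2 with Thbs4 at 0.17 by Spearman's rho and 0.13 with the lymphoid score removed, and Thbs4 with Comp at 0.0375 with that score removed and 0.11 without mice S_2011 and S_2014. Without the pair of mice farthest from the median of the first gene, r was -0.0107 for Thbs1 with Thbs2, -0.0264 for Thbs1 with Thbs3, 0.0381 for Thbs2 with Thbs4 and 0.19 for Thbs4 with Comp. With those mice chosen after centring, an alternative added after seeing the data, Thbs1 with Thbs3 was at -0.0539 and Thbs4 with Comp at 0.19. The number of genes called lower over the whole table was 8 with edgeR and 367 with DESeq2 (84 higher), 70 with the skeletal muscle score as a covariate, and 1 to 146 with 1 mouse left out (1 without S_2033, 146 without S_2022). No paired analysis was possible because the mice of the groups share no replicate number. Counting alone gives Thbs4 a coefficient of variation of 15.5% and 17.2% in the groups and Comp 12.0% and 15.2%, below the spread measured between mice.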
